A study of Mus musculus with 6 samples.

Results

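The regions described here are the 541 protein-coding genes longer than 300 kb on chromosomes 1 to 19 of the mouse (mm10, with the GENCODE annotation of that build), out of 20807 protein-coding genes on these chromosomes. Membership rests on annotated length alone; the set was taken up with earlier results of these data known. Each gene was divided into 10 equal segments, numbered 1 to 10 from its annotated start to its end, with a flank of 100 kb on either side. Break ends were counted in each segment and flank, once per position and strand, and relative to the direction of the gene. The question was whether differences between the groups lay early in these genes, late, or throughout. The genes ran from 300.3 to 4435 kb, with a median of 450.5 kb, and together covered 311.9 Mb, 13.0% of the sequenced bases of these chromosomes. Of the 541 genes, 287 lay on the plus strand, 218 were longer than 500 kb, 55 were longer than 1000 kb, and 17 overlapped another gene of the set.

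BLISS captures double-strand breaks by joining adaptors to free DNA ends in fixed nuclei and sequencing from each end outward. The material was sorted neurons from the forebrain of CK-p25 mice, a line in which withdrawal of doxycycline switches on p25 in forebrain neurons under a Camk2a-driven transactivator; p25 is a truncated activator of the kinase Cdk5. All 6 libraries carry the same labels of genotype and of 2 weeks of induction without doxycycline, the 2 libraries named Con included. The names Con, Step1 and Step2, with 2 libraries each, are the only difference between groups in the labels, and the labels do not say what they stand for. Nothing states that replicates came from separate animals, so p-values here measure the spread between libraries, which may be technical. Break ends carry no expression values, so the label of neurons was not checked against marker genes.

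Very long genes in the mouse code mainly for proteins of the nervous system, among them synaptic adhesion proteins, ion channels and receptors, and signalling scaffolds, and most of their length is intron. A polymerase needs hours to cross such a gene, topoisomerases relieve the twist ahead of and behind it, and several long neural genes are known sites of recurrent breaks in neural progenitors or of fragility under replication stress. Reads in the direction of a gene and reads against it come from the opposite sides of breaks, so the strand of an end carries information beyond its position.

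The sequences just before the annotated starts are shown for the 4 genes whose bodies were called lower in both Step1 and Step2 against Con (below), since segment 1 adjoins the annotated start and the later segments do not. Each line gives the 250 bases before the start on the strand of the gene, 5′ to 3′, from the mm10 genome, with each CG dinucleotide in capitals; CG reads the same on both strands. All 4 genes lie on the minus strand, at chr1:25829708-25829957 for Adgrb3, chr2:42653625-42653874 for Lrp1b, chr5:49524908-49525157 for Kcnip4 and chr8:17535587-17535836 for Csmd1.
Adgrb3: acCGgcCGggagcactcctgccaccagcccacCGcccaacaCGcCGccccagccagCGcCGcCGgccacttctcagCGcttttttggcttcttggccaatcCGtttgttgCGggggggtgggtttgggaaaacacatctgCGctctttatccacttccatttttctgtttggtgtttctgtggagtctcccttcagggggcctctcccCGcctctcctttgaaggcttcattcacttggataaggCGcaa
Lrp1b: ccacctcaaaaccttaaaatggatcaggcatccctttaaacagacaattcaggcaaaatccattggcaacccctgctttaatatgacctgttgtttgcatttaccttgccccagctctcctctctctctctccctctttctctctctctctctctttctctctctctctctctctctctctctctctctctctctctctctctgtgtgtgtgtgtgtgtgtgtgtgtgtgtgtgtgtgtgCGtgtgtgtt
Kcnip4: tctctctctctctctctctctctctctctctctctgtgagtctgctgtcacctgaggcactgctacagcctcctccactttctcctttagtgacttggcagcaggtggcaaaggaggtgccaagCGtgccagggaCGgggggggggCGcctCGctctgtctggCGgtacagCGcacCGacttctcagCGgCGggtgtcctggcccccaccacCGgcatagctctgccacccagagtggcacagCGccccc
Csmd1: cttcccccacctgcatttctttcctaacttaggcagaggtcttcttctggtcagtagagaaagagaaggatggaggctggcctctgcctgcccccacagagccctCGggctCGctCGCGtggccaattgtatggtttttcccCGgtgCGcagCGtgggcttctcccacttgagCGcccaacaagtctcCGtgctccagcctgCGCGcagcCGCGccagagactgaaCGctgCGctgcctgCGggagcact

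The windows of Adgrb3, Kcnip4 and Csmd1 held 14, 11 and 16 CG dinucleotides, whereas that of Lrp1b held 1. Those of Kcnip4 and Csmd1 held no end in any library, that of Adgrb3 0 to 1 per library and that of Lrp1b 0 to 2. The 4 windows alone therefore allow no comparison of groups. Over all 541 genes the median was 13 CG per window against 8 for all 20807 protein-coding genes. At least 10 CG were present in 60.4% of the windows of long genes and in 47.2% of all windows. The 541 windows held 279 and 410 ends in the Con libraries, 244 and 245 in those of Step1, and 134 and 142 in those of Step2, and 198 windows held no end in any library. Per Mb of window, with each library scaled to 1000000 counted ends, these were 1237 and 2028 for Con, 951 and 1148 for Step1, and 859 and 956 for Step2, so that Con replicate 2 stood highest and both Con libraries were above all others. In all 6 libraries the windows with at least 10 CG were denser than the others: 1503 and 2488 against 829 and 1325 in Con, 1090 and 1311 against 739 and 901 in Step1, and 996 and 1125 against 648 and 698 in Step2.

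The libraries held 1480461 to 2403238 reads. Counting each position and strand once, outside 25 windows of 10 kb where reads piled up, left 1667891 and 1494908 ends for Con, 1897349 and 1577359 for Step1, and 1153983 and 1098029 for Step2; no piled-up window lay in a gene of the set. Levels below are ends per Mb after scaling each library to 1000000 of these ends. As shares of a library, they carry no information on the number of breaks per nucleus. A gene of the set held a median of 285 ends per library. Across 12256 genes, which are not independent points, the correlation between replicates (Pearson r) was 0.942 for Con, 0.949 for Step1 and 0.925 for Step2. Reads had a median of 49 bases for Con, 48 for Step1 and 47 for Step2; the part of this in the results below was not tested.

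Gene bodies over 300 kb held a smaller share of break ends in Step1 and Step2 than in Con. The share was 13.52% and 13.75% in the Con libraries, 12.97% and 12.93% in those of Step1, and 12.73% and 12.82% in those of Step2. The groups did not overlap: both Con libraries were above the 13.02% of sequence that these genes cover, and the other 4 were below it. Their place beside 13.02% depended on the reads used. With mapping quality 42 only, all 6 libraries were above it, from 13.43% (Step2 replicate 1) to 14.44% (Con replicate 2). On the first sequencing run alone both Step1 libraries were above it, at 13.1% and 13.07%. The order of the groups was kept in both. Against a Con mean of 13.64% ± 0.161 (SD, n = 2), the share differed by −0.689 percentage points in Step1 (12.95% ± 0.0257, SD, n = 2) and −0.864 points in Step2 (12.77% ± 0.0605, SD, n = 2). With 2 libraries against 2 the smallest p an exact two-sided permutation test can give is 0.33, which is the p of each of these comparisons (0.43 after adjustment over 18 such tests), so none can pass 0.05.

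The flanks moved the other way, and the contrast between a gene and its flanks therefore changed more than either. Density in the bodies over density in the flanks, taken inside each library and given as log2, was 0.01 and 0.06 for Con, −0.08 and −0.09 for Step1, and −0.12 and −0.11 for Step2. In Con the bodies were at least as dense as their surroundings, and in all 4 other libraries they were less dense. The log2 ratio differed from Con by −0.12 in Step1 and −0.15 in Step2, and by −0.03 between Step2 and Step1, with no overlap of libraries in any of these comparisons (exact p = 0.33 each). Leaving out Con replicate 2, the library with the highest ratio, left differences of −0.09 and −0.12, and leaving out Con replicate 1 gave −0.15 and −0.18. With flank bases inside protein-coding genes left out, the differences were −0.15 and −0.17.

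**Figure D1:**
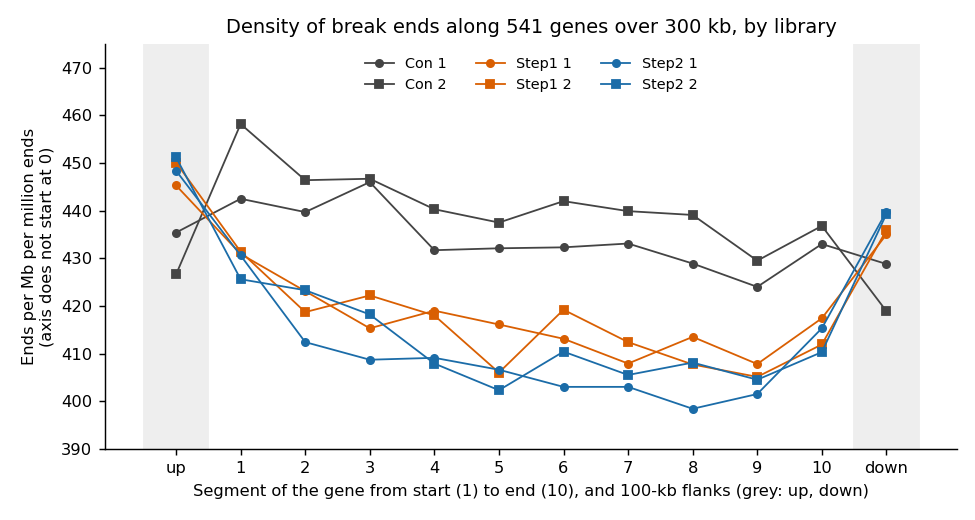
Density of break ends (ends per Mb, libraries scaled alike; the axis does not start at 0) in the upstream flank, the 10 segments and the downstream flank of the 541 genes, one line per library. In every segment both Con libraries sat above all Step1 and Step2 libraries, and in both flanks they sat below them.

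Along the gene, the lower density in Step1 and Step2 was present in every segment. In segment 1 the density was 442 and 458 in the Con libraries, 431 and 431 in those of Step1, and 431 and 426 in those of Step2. In segment 5 it was 432 and 438 in the Con libraries, 416 and 406 in those of Step1, and 407 and 402 in those of Step2, and in segment 10 433 and 437 in the Con libraries, 417 and 412 in those of Step1, and 415 and 410.3 in those of Step2. In each of the 10 segments both Con libraries were above all 4 others. The upstream flank had 435 and 427 in the Con libraries, 445 and 450.1 in those of Step1, and 448 and 451 in those of Step2, and the downstream flank 429 and 419 in the Con libraries, 435 and 436 in those of Step1, and 439.8 and 439 in those of Step2, so there both Con libraries were the lowest.

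A limma fit (lmFit and eBayes with trend) of the pooled levels covered 36 stretches, the 10 segments and 2 flanks of these genes and those of genes of 100 to 300 kb and of 30 to 100 kb. At an adjusted p below 0.05 all 10 segments of the genes over 300 kb were lower in Step1 than in Con, with log2 changes from −0.06 to −0.09 (SE 0.01 to 0.02), and both flanks were higher, by 0.05 and 0.04. Over all 36 stretches 77.8% were called in this comparison, 72.2% lower and 5.56% higher. In Step2 all 10 segments were lower, with log2 changes from −0.07 to −0.11, and the flanks were higher by 0.06 and 0.05, where 58.3% of the 36 stretches were called, 52.8% lower and 5.56% higher. Neighbouring stretches share the same 6 libraries and the spread was pooled over them, so these p-values are too small. The levels also rest on scaling by library totals, under which the median of all genes was itself −0.06 in Step1 and −0.05 in Step2. Scaling by trimmed means of M values moved the median of the long genes to −0.02 and −0.04. The part of this shift in the segment and flank changes was not tested. The body over flank ratio, taken inside each library, does not depend on library totals. Without Step1 replicate 2 limma called none of the 12 stretches in Step1 against Con (9 at an unadjusted p below 0.05), and without Step1 replicate 1 there were 5. Between Step2 and Step1 none of the 12 was called (0.0% of the 36; 2 of the 12 had an unadjusted p below 0.05).

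**Figure D2:**
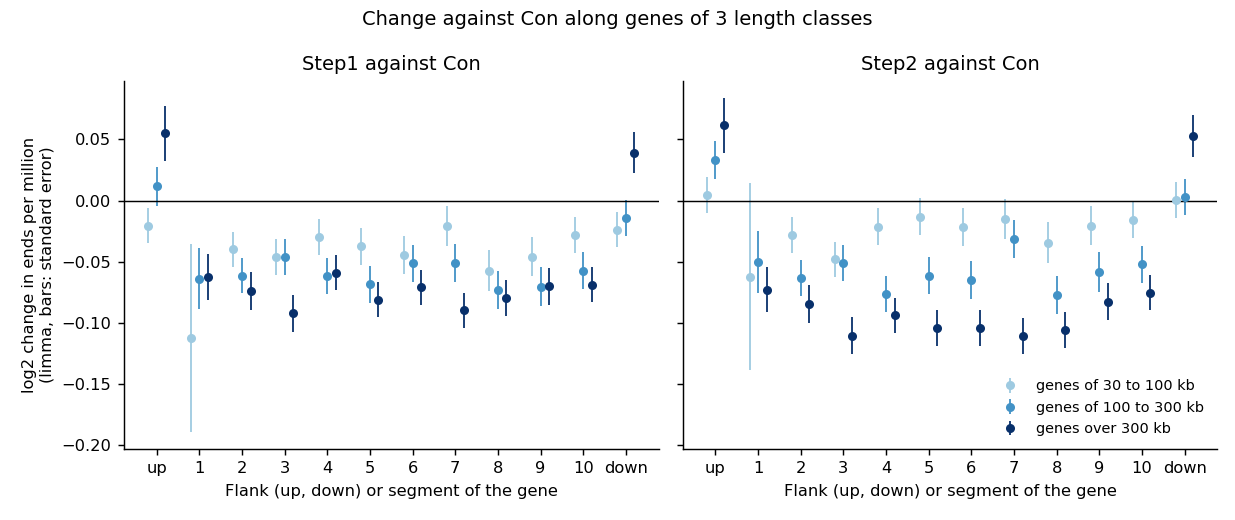
Change in scaled ends against Con (log2, limma, bars are standard errors) in each flank and segment, for Step1 and Step2, in genes of 30 to 100 kb, 100 to 300 kb and over 300 kb. In genes over 300 kb all 10 segments lay below 0 and both flanks above 0 in both panels.

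Over the pooled set, no difference between groups in the shape of the profile inside the genes was detectable. In every library segments 8 to 10 were slightly less dense than segments 1 to 3: the log2 ratio was −0.05 and −0.05 for Con, −0.04 and −0.06 for Step1, and −0.04 and −0.05 for Step2. The libraries of the 3 groups overlapped, and the differences from Con were 0.0032 in Step1 and 0.0014 in Step2 (exact permutation p = 1 for each). Of 11 subsets by length or list, the libraries did not overlap in 4 for Step1 and 2 for Step2 against Con, in both directions (exact p = 0.33 each). In Step1 late over early density was higher than in Con by 0.04 in adhesion genes and 0.06 in channels and receptors, and differed by −0.08 in the 7 RNA-binding genes and −0.09 in the genes listed as silent in forebrain neurons. In Step2 it differed by −0.01 in genes of 300 to 500 kb and 0.03 in those over 1000 kb. When each segment was expressed relative to the mean of the 10 in the same library, limma called none of the 10 in any of the 3 comparisons (0.0% of 30 segments over the 3 length classes), and none of the 10 had an unadjusted p below 0.05. The largest of these deviations was 0.02 ± 0.02 (SE), for segment 1 in Step2 against Con. The middle 4 segments were also set over the outer 4, which are the first 2 and the last 2. The log2 ratios were −0.0083 and −0.0092 in the Con libraries, −0.02 and −0.01 for Step1, and −0.03 and −0.03 for Step2. Both Step2 libraries were lowest (Step2 minus Con −0.0244, exact permutation p = 0.33). This depended on the reads used. On the first sequencing run alone Step1 replicate 1, at −0.0223, was below both Step2 libraries (−0.0183 and −0.0219) and the difference from Con was −0.0158, and with all reads it was −0.0121.

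In bins of 50 kb, the difference from Con changed sign between the last bin outside a gene and the first bin inside it. The density from 100 to 50 kb before the start was 427 and 420.3 in the Con libraries, 444 and 445 in those of Step1, and 446 and 451 in those of Step2. From the start to 50 kb into the gene it was 442 and 459 in the Con libraries, 435 and 434 in those of Step1, and 437 and 430.5 in those of Step2. From 200 to 250 kb into the gene it was 437 and 438 in the Con libraries, 411 and 412 in those of Step1, and 404 and 408 in those of Step2. In these 3 bins Con was lowest outside and highest inside. The log2 differences from Con ran from 0.07 and 0.08 (Step1 and Step2, 100 to 50 kb before the start) through 0.04 and 0.04 (the last 50 kb before it) to −0.05 and −0.05 in the first 50 kb of the gene, and then lay between −0.08 and −0.11 up to 300 kb. At the other side they went from −0.07 and −0.08 in the last 50 kb of the gene to 0.03 and 0.03 in the next 50 kb and 0.05 and 0.07 in the 50 kb beyond. Closer to the genes, some narrow bins outside them went the other way. From 2 to 1 kb before the start the density was 469.9 and 501 in the Con libraries, 449 and 457 in those of Step1, and 455 and 449.5 in those of Step2. In the first kb past the end it was 449.9 and 499.5 in the Con libraries, 393 and 380 in those of Step1, and 436 and 428 in those of Step2. In both bins Con was above all others, with log2 differences from Con of −0.10 and −0.10 (Step1 and Step2) before the start and −0.30 and −0.14 past the end, on 254 to 461 ends per library. Other narrow bins outside did not share this direction. The differences were 0.03 and 0.03 from 5 to 2 kb before the start, and 0.09 and −0.01 from 1 to 2 kb past the end. Further past the end they were 0.01 and 0.01 (2 to 5 kb), −0.02 and 0.01 (5 to 10 kb), and 0.03 and 0.04 (10 to 20 kb).

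The last kb before the start was the densest of the distance bins in every library. There the density was 666 and 946 in the Con libraries, 598 and 696 in those of Step1, and 619.9 and 672 in those of Step2, which made it highest in Con replicate 2. Both Step1 and Step2 differed from Con by −0.30 (log2) there, and Con replicate 1 lay below Step1 replicate 2, so that the groups overlapped. Without Con replicate 2 the differences were −0.05 and −0.05, and without Con replicate 1 −0.55 and −0.55, so their size rested on Con replicate 2. Leaving out 5 kb around every protein-coding gene start gave body over flank differences from Con of −0.13 in Step1 and −0.16 in Step2.

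The strand of the ends changed along the genes in every library. The share of ends read in the direction of the gene (50% where both strands are equal) was 50.4% and 49.3% in segments 1 to 3 of the Con libraries, 50.8% and 51.0% in those of Step1, and 51.0% and 50.8% in those of Step2. In segments 8 to 10 it was 49.1% and 47.6% for Con, 48.7% and 48.7% for Step1, and 49.7% and 49.4% for Step2. It was thus lower late than early in all 6 libraries, by −1.34 and −1.68 percentage points for Con, −2.17 and −2.29 for Step1, and −1.33 and −1.38 for Step2. Over all 541 genes Step1 had the steepest fall, apart from both other groups (Step1 minus Con −0.721 points, Step2 minus Step1 0.876 points, exact permutation p = 0.33 each), while Con and Step2 overlapped. With all reads the Step1 difference from Con was −0.434 points, with Con replicate 2 at −2.14 beside −2.22 and −2.29 in Step1. It was not uniform over length: in genes over 1000 kb Con replicate 1 (−1.55) fell more than Step1 replicate 2 (−1.50), and in genes of 500 to 1000 kb Step2 replicate 1 (−2.71) fell most. In the flanks the share was between 49.8% and 50.1% in all libraries. From 1 to 2 kb after the start it was 55.6% and 54.2% in the Con libraries, 60.5% and 58.0% in those of Step1, and 59.1% and 62.1% in those of Step2. It was thus above 50% in all 6 and lowest in both of Con, on 320 to 521 ends per library. The bins on either side did not repeat this order. In the first kb the share was 51.5% and 52.7% for Con, 50.4% and 59.3% for Step1, and 55.5% and 54.4% for Step2. From 2 to 5 kb it was 51.2% and 53.4%, 53.0% and 51.3%, and 54.0% and 52.55% in the same order, and Con overlapped both other groups.

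Over whole bodies the share in the direction of the gene was 49.68% (95% Wilson interval 49.48 to 49.89%) and 48.61% (48.4 to 48.83%) in the Con libraries. It was 49.7% (49.5 to 49.9%) and 49.72% (49.5 to 49.93%) in those of Step1, and 50.12% (49.86 to 50.37%) and 50.02% (49.76 to 50.28%) in those of Step2; these intervals cover counting error only. Con replicate 2 was below the interval of every other library, and Con replicate 1 was inside the intervals of both Step1 libraries. The mean difference from Con was 0.56 points in Step1 and 0.919 in Step2. Without Con replicate 2 it was 0.0251 and 0.385, and without Con replicate 1 it was 1.09 and 1.45, so its size depended on which Con library was used. Neither trait was particular to long genes. The difference was 0.57 and 0.81 points (Step1 and Step2) at 100 to 300 kb, and 0.42 and 0.92 at 30 to 100 kb. At 100 to 300 kb the share in the Con libraries fell from 52.4% and 51.7% in segment 1 to 48.8% and 48.0% in segment 10. At 30 to 100 kb it fell from 53.4% and 52.1% to 50.15% and 49.2%.

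**Figure D3:**
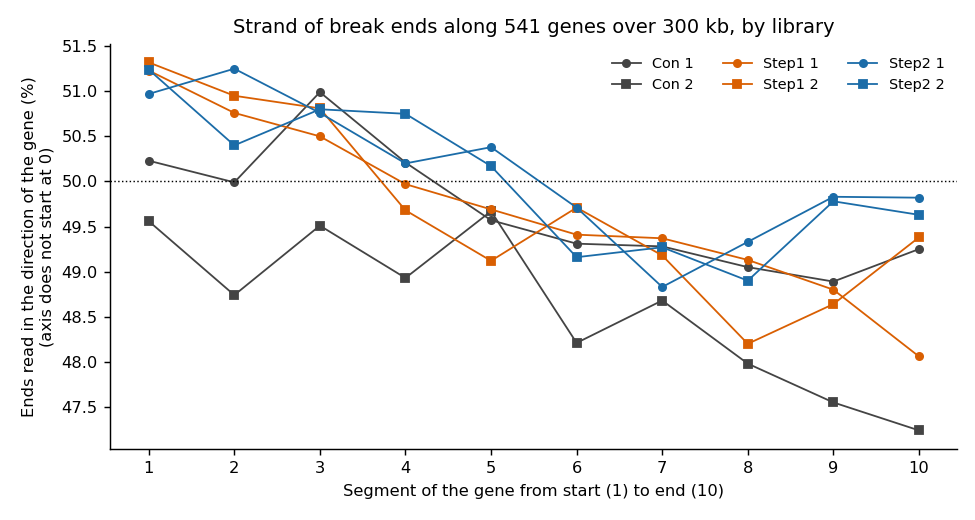
Percentage of ends read in the direction of the gene in each of the 10 segments of the 541 genes, one line per library (the axis does not start at 0; dotted line at 50%). All 6 lines are lower over segments 8 to 10 than over segments 1 to 3.

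Gene by gene, most of the 541 genes moved the same way, by little. In the limma voom fit of gene bodies, which tested 12256 protein-coding genes with all 541 long genes among them, 419 of the 541 (77.5%) had a lower estimate in Step1 than in Con and 416 (76.9%) in Step2; over all genes tested it was 58.8% and 56.0%. The median log2 change was −0.07 in Step1 and −0.09 in Step2, against −0.06 and −0.05 over all genes. The middle of the distribution was narrow: from the 5th to the 95th percentile the long genes lay between −0.23 and 0.09 in Step1 and between −0.28 and 0.12 in Step2, where a gene's own standard error had a median of 0.08 and 0.09. Both libraries were below both Con libraries in 248 genes (45.8%) in Step1 and 254 (47.0%) in Step2, against 24.1% and 22.6% of all genes tested. Of body over flank ratios, 208 genes (38.5%) and 241 (44.5%) were apart in this direction, against 23.0% and 24.1% of the 7338 genes over 30 kb. Longer genes hold more ends and are measured more precisely, and the part of this in these shares was not tested.

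At an adjusted p below 0.05 (limma voom), 14 of the 541 were called lower in Step1 than in Con and none higher, where 0.147% of all 12256 genes were called, 0.139% lower and 0.00816% higher. In Step2, 10 were called lower and none higher, against 0.122% of all genes called, 0.0898% lower and 0.0326% higher. Between Step2 and Step1 none was called (0.0326% of all genes; 44 of the 541 had an unadjusted p below 0.05). The counts rested on few libraries. In Step1 against Con, leaving out Con replicate 1 gave 25 called genes and leaving out Con replicate 2 gave 4 (Csmd1, Dlg2, Frmd4a and Lrp1b). Leaving out Step1 replicate 1 gave 1 (Csmd1) and leaving out the other gave 5 (Dlg2, Frmd4a, Lrp1b, Nrxn3 and Rbfox1). In Step2 against Con, 25 were called when Con replicate 1 was left out, 1 (Nrg3) when Step2 replicate 1 was, and 2 (Adgrb3 and Prkce) when Step2 replicate 2 was. Scaling by trimmed means of M values, which brought the median of all genes to −0.01 and 0.0021, called Rbfox1 lower and Prkg1 and Fgfr2 higher in Step1, and called 5 lower and none higher in Step2 (Adgrb3, Cntn5, Kcnip4, Nrg3 and Prkce); under it 324 and 344 of the 541 were below 0.

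Genes called in both comparisons were Adgrb3, Lrp1b, Kcnip4 and Csmd1, the 4 whose starts are printed above; both comparisons share the Con libraries. Adgrb3 (chr1:25067476-25829707, minus strand) encodes an adhesion G protein-coupled receptor of synapses. In ends per Mb, its body held 473 and 529 in the Con libraries, 417 and 410.0 in those of Step1, and 372 and 419 in those of Step2. Both Con libraries were above the other 4, and the log2 change was −0.27 ± 0.06 (SE), adjusted p = 0.00351 in Step1, and −0.34 ± 0.07 (SE), adjusted p = 0.00102 in Step2. The density was lower than in Con in 8 of its 10 segments in Step1 and in 8 in Step2; for this and the other called genes such counts are a description, since the call on the whole body rests on the same ends.

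Kcnip4 (chr5:48389502-49524907, minus strand) encodes a calcium-binding subunit of A-type potassium channels. Its density was 494 and 482 in the Con libraries, 442 and 423 in those of Step1, and 408 and 400.3 in those of Step2, so each Step1 library lay between both Con and both Step2 libraries. The change was −0.17 ± 0.04 (SE), adjusted p = 0.0344 in Step1, and −0.27 ± 0.05 (SE), adjusted p = 0.000426 in Step2. Of its segments 8 were lower in Step1 and 10 in Step2. Under the other scaling Kcnip4 and Adgrb3 were called in Step2 alone, at −0.22 and −0.29.

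Csmd1 (chr8:15892537-17535586, minus strand) encodes a membrane protein with complement-control domains. Its density was 469.6 and 464 in the Con libraries, 426 and 405 in those of Step1, and 407 and 401 in those of Step2. The change was −0.17 ± 0.03 (SE), adjusted p = 0.000486 in Step1, and −0.21 ± 0.04 (SE), adjusted p = 0.000426 in Step2. Lrp1b (chr2:40595246-42653624, minus strand) encodes a receptor of the LDL-receptor family and is a known fragile-site gene. It held 449 and 441 in the Con libraries, 397 and 401 in those of Step1, and 391 and 413 in those of Step2, with a change of −0.16 ± 0.03 (SE), adjusted p = 1.76e-05 in Step1, and −0.15 ± 0.03 (SE), adjusted p = 0.00901 in Step2. In both genes all 4 Step libraries were below both Con libraries; 7 and 8 segments of Csmd1 were lower in Step1 and Step2, and 9 and 9 of Lrp1b. Neither was called in either comparison under the other scaling, which gave −0.16 and −0.10 in Step2.

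**Figure D4:**
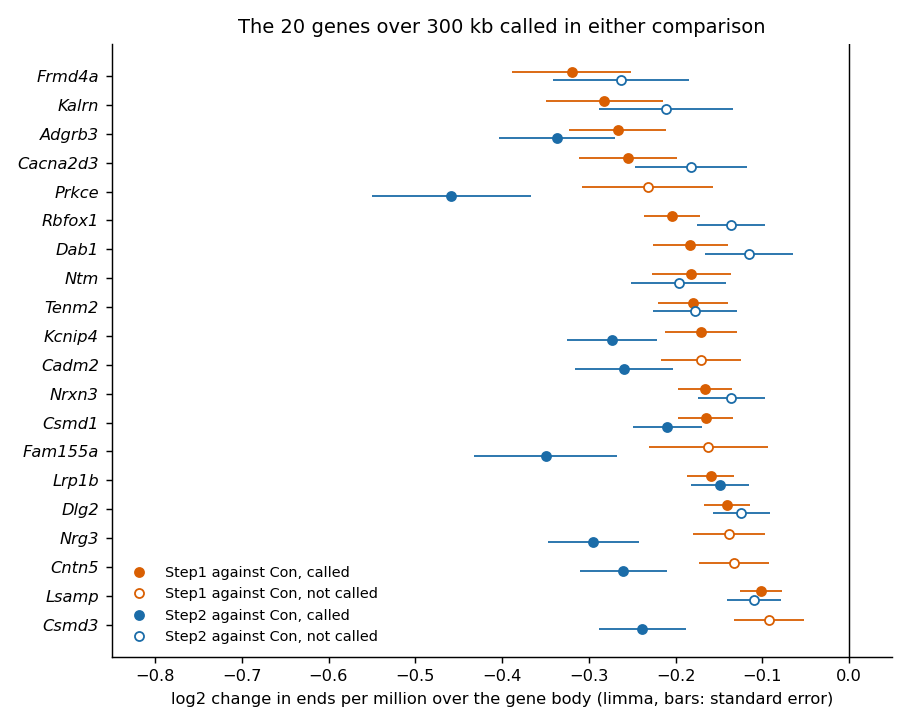
Change in gene-body ends against Con (log2, limma voom, bars are standard errors) for the 20 genes called in Step1 or Step2; filled points are called, open points are not. All 40 estimates lie below 0.

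Of all 541 genes of the set 2.59% were called lower in Step1 and 1.85% in Step2, against 0.139% and 0.0898% of all genes tested, and the counts of the lists below stand beside these shares. Among the 43 synaptic and neuronal adhesion genes of the set, 7 were called lower in Step1 and 6 in Step2; the median changes were −0.10 and −0.13, and 37 of the 43 estimates were below 0 in each. Besides the genes above, these were Nrxn3, Tenm2, Ntm and Lsamp in Step1, and Cntn5, Cadm2 and Csmd3 in Step2. Nrxn3 (chr12:88722876-90334935, plus strand), a presynaptic neurexin, held 450.4 and 510.4 in the Con libraries, 425 and 424 in those of Step1, and 426 and 442 in those of Step2, with Con replicate 2 well above the rest. Its change was −0.17 ± 0.03 (SE), adjusted p = 0.000456 in Step1, and −0.14 ± 0.04 (SE), adjusted p = 0.139 in Step2. Tenm2 (chr11:36006656-37235964, minus strand), a teneurin that binds latrophilins across the synapse, held 462 and 478 in the Con libraries, 425 and 399.7 in those of Step1, and 409 and 421 in those of Step2. The fit gave −0.18 ± 0.04 (SE), adjusted p = 0.0113 in Step1, and −0.18 ± 0.05 (SE), adjusted p = 0.115 in Step2, and Con was above the rest. The GPI-anchored IgLON proteins Ntm and Lsamp had log2 changes of −0.18 ± 0.05 (SE), adjusted p = 0.0495 and −0.10 ± 0.02 (SE), adjusted p = 0.026 in Step1.

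Cntn5 (chr9:9660891-10904775, minus strand), a contactin, held 459.8 and 455 in the Con libraries, 412 and 425 in those of Step1, and 387 and 376 in those of Step2. Step2 was lowest and Con highest, and the change was −0.26 ± 0.05 (SE), adjusted p = 0.000655 in Step2, with −0.13 ± 0.04 (SE), adjusted p = 0.204 in Step1. All 10 of its segments were lower in Step2. Cadm2, a synaptic cell adhesion molecule, held 493 and 506 in the Con libraries, 442 and 444 in those of Step1, and 423 and 410.3 in those of Step2, a change of −0.26 ± 0.06 (SE), adjusted p = 0.00534 in Step2. Csmd3, a relative of Csmd1, held 463 and 468 in the Con libraries, 427 and 449.5 in those of Step1, and 405 and 383 in those of Step2 and changed by −0.24 ± 0.05 (SE), adjusted p = 0.00302 in Step2, again with 10 of 10 segments lower. In both genes the Step2 libraries were the lowest of the 6.

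Of the 42 channel and receptor genes, 2 were called lower in Step1 and 1 in Step2, with medians of −0.07 and −0.14. Kcnip4 was called in both, and Cacna2d3 (chr14:28904943-29721864, minus strand), an auxiliary subunit of voltage-gated calcium channels, in Step1. Cacna2d3 held 461 and 470.0 in the Con libraries, 397 and 381 in those of Step1, and 399.9 and 420.3 in those of Step2, so Con was above all others. Its change was −0.25 ± 0.06 (SE), adjusted p = 0.00748 in Step1, and −0.18 ± 0.06 (SE), adjusted p = 0.326 in Step2.

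Of the 61 genes for scaffolds, kinases and signalling enzymes, 2 were called lower in Step1 and 2 in Step2, with medians of −0.10 and −0.12. Those of Step1 were Dlg2, a postsynaptic scaffold, and Dab1, the intracellular adaptor of reelin receptors. Dlg2 (chr7:90476672-92449247, plus strand) held 466 and 468 in the Con libraries, 415 and 436 in those of Step1, and 420.4 and 436 in those of Step2 and changed by −0.14 ± 0.03 (SE), adjusted p = 0.000456. Those of Step2 were Prkce, a protein kinase C, and Nrg3, a ligand of ErbB4. Prkce (chr17:86167785-86657919, plus strand) held 476 and 482 in the Con libraries, 422 and 391 in those of Step1, and 324 and 375 in those of Step2, with Step2 lowest, and had the largest called change of these genes, −0.46 ± 0.09 (SE), adjusted p = 0.00102. Its segment 1, singled out after its values were seen, had mean densities of 590.5 in Con, 467 in Step1 and 228 in Step2, while segment 10 had 528, 503 and 493. Nrg3 (chr14:38368952-39473088, minus strand) held 489.8 and 506 in the Con libraries, 445 and 460.5 in those of Step1, and 419 and 391 in those of Step2, with all 10 segments below Con in both Step1 and Step2, and changed by −0.29 ± 0.05 (SE), adjusted p = 0.000111 in Step2.

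Rbfox1 (chr16:5885355-7411526, plus strand), a neuronal splicing factor, was the 1 called gene of the 7 for RNA-binding proteins. It held 468 and 533 in the Con libraries, 430.0 and 432 in those of Step1, and 437 and 467 in those of Step2, with Con replicate 2 highest. Its change was −0.20 ± 0.03 (SE), adjusted p = 3.8e-06 in Step1, and −0.14 ± 0.04 (SE), adjusted p = 0.145 in Step2. Frmd4a, a scaffold of cell polarity, and Kalrn, a signalling protein of dendritic spines, were called in Step1 and lie in none of the lists. Frmd4a held 495 and 457 in the Con libraries, 371 and 396 in those of Step1, and 391 and 403 in those of Step2, a change of −0.32 ± 0.07 (SE), adjusted p = 0.00492, and was lower in 10 of 10 segments. Fam155a, which encodes an auxiliary subunit of the sodium leak channel, was the called gene of Step2 outside the lists, at −0.35 ± 0.08 (SE), adjusted p = 0.0214. None of the 23 transcription and chromatin factors was called in either comparison (medians −0.07 and −0.05; 9 and 6 had an unadjusted p below 0.05).

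The called genes were long even for this set. Those of Step1 had a median length of 1182 kb against 443 kb for the genes not called, and those of Step2 1120 kb against 444 kb. Longer genes hold more ends, and the median standard error was 0.04 for the called and 0.08 for the other genes in Step1, and 0.05 and 0.09 in Step2. Across the 541 genes the Pearson correlation of log2 length with log2 change was 0.0048 in Step1 and −0.06 in Step2, over genes that share the same 6 libraries. Over all 541 genes the median was 6 of 10 segments below Con in both comparisons. Of the 10 genes called in Step2, 1 lay on the plus strand, and of the 14 in Step1 6 did.

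No gene of the set was called higher. The 3 with the smallest p in that direction were Prkg1, Myo5b and Csgalnact1 in Step1, and Myo5b, Sox6 and St18 in Step2. Myo5b, a myosin motor of recycling vesicles, held 345 and 324 in the Con libraries, 443 and 386 in those of Step1, and 446 and 416 in those of Step2, with both Con libraries lowest. The fit gave 0.31 ± 0.10 (SE), adjusted p = 0.277 in Step1, and 0.37 ± 0.11 (SE), adjusted p = 0.212 in Step2. Sox6, a transcription factor of interneurons and glia, held 484 and 436 in the Con libraries, 536 and 497 in those of Step1, and 551 and 524 in those of Step2, and St18, a zinc-finger transcription factor, 401 and 414 in the Con libraries, 429 and 448 in those of Step1, and 485 and 492 in those of Step2. In Step2 these were 0.22 ± 0.07 (SE), adjusted p = 0.259, and 0.26 ± 0.10 (SE), adjusted p = 0.404. Csgalnact1, an enzyme of chondroitin sulfate synthesis, had 0.25 ± 0.10 (SE), adjusted p = 0.398 in Step1. Prkg1, a cGMP-dependent kinase, had 0.13 ± 0.04 (SE), adjusted p = 0.261 in Step1. It was called higher in Step1 under the scaling by trimmed means, as was Fgfr2, whose annotated length of 2961 kb makes it the gene with the most ends here (425 and 409 in the Con libraries, 425 and 429 in those of Step1, and 436 and 415 in those of Step2).

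Several of the genes with the most ends, in which the precision was high, were not called. Ptprd, a receptor tyrosine phosphatase of synapses, held 444 and 471 in the Con libraries, 434 and 428 in those of Step1, and 435 and 421 in those of Step2, and the fit gave −0.08 ± 0.02 (SE), adjusted p = 0.165 in Step1, and −0.09 ± 0.03 (SE), adjusted p = 0.267 in Step2. Cntnap2, a member of the neurexin family at nodes of axons, held 410.2 and 418 in the Con libraries, 412 and 401 in those of Step1, and 386 and 369 in those of Step2. Its values were −0.02 ± 0.03 (SE), adjusted p = 0.863 in Step1, and −0.13 ± 0.03 (SE), adjusted p = 0.059 in Step2, with Step2 lowest. Rbms3, an RNA-binding protein, had 0.01 ± 0.05 (SE), adjusted p = 0.961 in Step1, and −0.01 ± 0.05 (SE), adjusted p = 0.975 in Step2. Auts2 and Zfhx3, nuclear regulators of neuronal development, had log2 changes of −0.10 and −0.01 in Step1 and −0.17 and 0.01 in Step2, and neither was called.

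Step2 and Step1, compared directly, gave no call. The smallest p in the lower direction belonged to Cntnap2, Grip1 and Nrg3, with −0.11 ± 0.03 (SE), adjusted p = 0.614, for Cntnap2, −0.26 ± 0.08 (SE), adjusted p = 0.72, for Grip1, and −0.16 ± 0.05 (SE), adjusted p = 0.83, for Nrg3. In the higher direction they belonged to Egfem1, Cadm1 and Tanc2, at 0.21, 0.27 and 0.28 on the log2 scale (limma voom, adjusted p = 0.962 for Egfem1). Of the 541 estimates 315 (58.2%) were below 0, against 48.0% of all genes tested.

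The body over flank ratio was also taken inside each library over the pooled genes of a list. Adhesion genes had log2 ratios of 0.04 and 0.07 in the Con libraries, −0.11 and −0.15 in those of Step1, and −0.16 and −0.11 in those of Step2. Channels and receptors had −0.02 and 0.12, −0.08 and −0.07, and −0.18 and −0.11 in the same order, and scaffolds, kinases and signalling enzymes 0.01 and 0.10, −0.08 and −0.13, and −0.14 and −0.15. In each of these lists both Con libraries were above the other 4. The differences from Con were −0.19 and −0.19 (Step1 and Step2) for adhesion genes, −0.12 and −0.20 for channels and receptors, −0.16 and −0.20 for scaffolds and signalling enzymes, −0.23 and −0.22 for the 7 RNA-binding proteins, and −0.17 and −0.19 for the 23 transcription and chromatin factors. The 335 genes in no list gave −0.10 and −0.13. The 16 known common fragile site genes gave −0.10 and −0.05, with Con at −0.05 and −0.06, so they were less dense than their flanks in Con too. Their body density differed from Con by −0.07 and −0.10 (log2), and their flank density by 0.03 and −0.05. For the genes in no list these were −0.07 and −0.08, and 0.03 and 0.05. In the fit of bodies 15 and 16 of the 16 fragile site estimates were below 0, and 2 and 1 were called lower, beside 2.59% and 1.85% of the set. The lists can share genes.

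The 21 genes listed for having little or no known expression in forebrain neurons, among them dyneins of motile cilia and proteins of muscle, did not separate by group. Their log2 ratio was 0.03 and −0.03 for Con, −0.01 and −0.02 for Step1, and −0.04 and 0.03 for Step2, and the 3 groups overlapped (differences from Con −0.01 and −0.0003, exact permutation p = 1 each). In the fit of bodies 9 of the 21 were below 0 in Step1 and 9 in Step2, with medians of 0.01 and 0.01, and limma voom called none (0 and 1 had an unadjusted p below 0.05). The estimates ran from −0.12 (Trdn) to 0.16 (Dnah7a) in Step1 and from −0.30 (Nebl) to 0.24 (Dnah7a) in Step2. Sgcz and Sgcd, muscle sarcoglycans, held the most ends of the list. The density of Sgcz was 433 and 424 in the Con libraries, 431 and 401 in those of Step1, and 396 and 430.1 in those of Step2, and that of Sgcd 424 and 427 in the Con libraries, 410.0 and 403 in those of Step1, and 392 and 397 in those of Step2. The fit gave −0.04 ± 0.04 (SE), adjusted p = 0.861 in Step1, and −0.06 ± 0.05 (SE), adjusted p = 0.814 in Step2 for Sgcz. For Sgcd it gave −0.06 ± 0.05 (SE), adjusted p = 0.77 in Step1, and −0.11 ± 0.06 (SE), adjusted p = 0.618 in Step2. The list came from general knowledge of these genes and not from expression measured in these mice. Like the other lists, it was chosen with earlier results of these data known. The difference between it and the other lists was not tested.

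**Figure D5:**
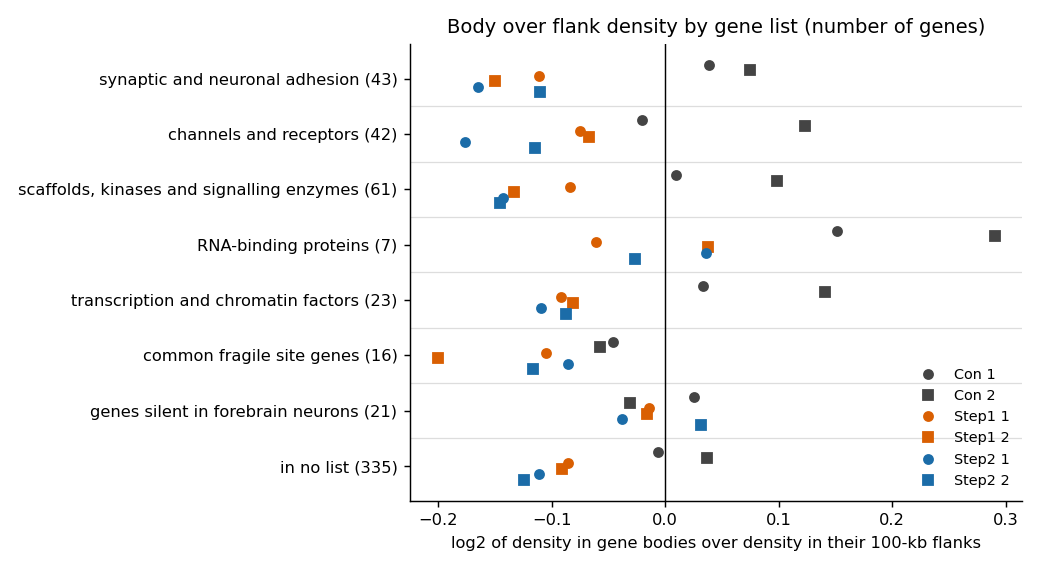
Density in gene bodies over density in their 100-kb flanks (log2) for 8 sets of genes over 300 kb, 1 point per library, with circles for replicate 1 and squares for replicate 2. Con points lie to the right of all Step1 and Step2 points in every set except the genes silent in forebrain neurons, where the groups overlap.

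Within single genes, no early or late difference was called. Each gene was cut into 3 equal parts, and the limma voom model compared the change in the late part with the change in the early part. It called none of the 541 in Step1 or Step2 against Con or in Step2 against Step1 (0.0% in each; 31, 32 and 25 had an unadjusted p below 0.05). Of the 541 estimates 272, 283 and 282 were below 0, with medians of −0.0043, −0.01 and −0.0083. For the called genes above no such difference was called either: for Adgrb3 it was −0.04 ± 0.15 (SE), adjusted p = 0.979 in Step1, and for Kcnip4 0.07 ± 0.12 (SE), adjusted p = 0.95. For Csmd1 in Step2 it was 0.29 ± 0.12 (SE), adjusted p = 0.706.

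The smallest p was that of Shank2, a postsynaptic scaffold (chr7:144001928-144424494, plus strand), in Step2 against Con. The ends in its early part numbered 87 and 73 in the Con libraries, 107 and 91 in those of Step1, and 84 and 78 in those of Step2. Those in its late part numbered 97 and 86 in the Con libraries, 101 and 71 in those of Step1, and 47 and 44 in those of Step2. Per 1000000 ends of a library, the early part had 52.2 and 48.8 in the Con libraries, 56.4 and 57.7 in those of Step1, and 72.8 and 71.04 in those of Step2. The late part had 58.2 and 57.5, 53.2 and 45.0, and 40.7 and 40.1 in the same order. Both Step2 libraries were thus the highest of the 6 in the early part and the lowest in the late part, by 0.51 and −0.52 (log2) against Con. The late minus early change was −1.02 ± 0.24 (SE), adjusted p = 0.117 in Step2, and −0.39 ± 0.21 (SE), adjusted p = 0.767 in Step1. Without Step2 replicate 1 the Shank2 value in Step2 had an adjusted p of 0.937 (limma voom). Shank2 in Step2 passed 0.05 with a mapping quality of at least 30 (adjusted p = 0.0461) or of 42 (0.0466) and on the second sequencing run alone (0.0153), and not on the first (0.879); over its alternatives the adjusted p of limma ran from 0.0153 to 0.937.

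The other genes with the smallest p had estimates in both directions. In Step1 against Con, Nav3, Astn2 and Prkca had −0.36, −0.34 and −0.51, and Sh3gl2, Ccdc7a and Ccdc171 had 0.61, 0.79 and 0.64 (limma voom, adjusted p = 0.767 for all 6). In Step2 against Con, Mei4 and Ntrk3 had −0.89 and −0.51, and Slc24a3, Dlgap2 and Ccdc171 had 0.68, 0.46 and 0.74 (adjusted p = 0.706 for all 5). Ccdc171 was thus among them in both comparisons with Con, which share libraries. In Step2 against Step1, Hivep3, Shank2 and Erc2 had −0.72, −0.63 and −0.36, and Slc24a3, Pcdh7 and Nrg1 had 0.62, 0.53 and 0.37 (adjusted p = 0.892 for all 6). The early part of Ccdc171 held 86 and 72 in the Con libraries, 78 and 61 in those of Step1, and 47 and 37 in those of Step2. Its late part held 80 and 55 in the Con libraries, 98 and 88 in those of Step1, and 56 and 65 in those of Step2. Scaled to 1000000 ends, the early part was lower than in Con in all 4 Step libraries (log2 −0.32 in Step1 and −0.43 in Step2) and the late part higher (0.35 and 0.35).

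Body over flank differences were smaller in shorter genes. For the 1831 genes of 100 to 300 kb they were −0.06 in Step1 and −0.08 in Step2, and for the 4966 genes of 30 to 100 kb −0.03 and −0.03, against −0.12 and −0.15 over 300 kb. The difference between the set and the genes of 100 to 300 kb was −0.06 and −0.07, with no overlap of libraries (exact permutation p = 0.33 each). The flanks of these classes were not alike. Protein-coding genes covered 20.2% of the upstream and 28.3% of the downstream flanks of genes over 300 kb. At 100 to 300 kb they covered 33.8% and 45.4%, and at 30 to 100 kb 47.4% and 52.6%. The part of this in the smaller differences of shorter genes was not tested. Within the set, genes of 300 to 500 kb gave −0.118 and −0.145, those of 500 to 1000 kb −0.121 and −0.163, and the 55 over 1000 kb −0.142 and −0.140, and the differences among these classes were not tested. The pattern was spread over chromosomes 1 to 19. On all 19 chromosomes, with 10 to 51 genes of the set each, the difference was below 0 in Step1 (−0.05 on chromosome 19 to −0.18 on chromosome 16) and in Step2 (−0.08 on chromosome 18 to −0.21 on chromosome 12). On chromosome 18 Con replicate 1 (−0.065) lay below Step1 replicate 1 (−0.061), so these groups overlapped there. The 26 long genes of chromosome X, outside the set, differed by 0.0034 in Step1 and −0.04 in Step2.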

How the data were processed

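Sorted forebrain neurons of CK-p25 mice were profiled by BLISS in 6 libraries, 2 each named Con, Step1 and Step2. The deposited files list aligned reads with position, strand and a score, from 11 to 42, read here as mapping quality from its range. The authors made them with Bowtie2, SAMtools and bedtools, per the submitters' processing notes (versions not given in the sources used here). The score served as a filter in alternatives only. The 5′ end of each read was counted once per position and strand (Python 3.11.15, pandas 2.3.3). Library totals on chromosomes 1 to 19, used for scaling, left out 25 windows of 10 kb with more than 20 times the median of 45 reads. Genes were those of the GENCODE annotation of mm10. Members, gene lists and comparisons were chosen with earlier results of these data known.

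Gene bodies (12256 with at least 10 ends in 2 libraries) and late against early parts were tested with limma 3.58.1 (voom, library totals as scale, R 4.3.3), pooled segments with limma on log2 densities, and p-values adjusted by Benjamini-Hochberg over all features of a fit. Libraries of single genes were compared on log2 values with a pseudocount of 0.5 ends. Single values were tested with exact two-sided permutation tests (numpy 2.4.6). Wilson intervals came from SciPy 1.17.1. Fits were tested on simulated data. Named genes were, per fit, comparison and direction, up to 10 called genes with the largest change or else the 3 with the smallest p, the 5 with the most ends, and the 2 with the most ends in each list; the other called genes were named too, and 1 gene of this rule is not reported here.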

Additional observations from a re-analysis of the deposited data

How the results depend on the processing

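The lower share in bodies, the body over flank ratio and the share of ends in gene direction kept their direction under all alternatives run. Late over early density changed sign under several. For Step1 against Con it was −0.00034 with mapping quality 42 only, −0.0022 on the first sequencing run, −0.0062 for segment 10 over segment 1 and −0.014 for the last over the first 100 kb. For Step2 against Con it was −0.0013 at mapping quality 30 or more, −0.0071 at 42, −0.0024 on the first run, −0.0011 with the GC curve removed, −0.0057 as a mean over genes, −0.0023 for segment 10 over 1 and −0.012 for the outer 100 kb. For Step2 against Step1 it was 0.00093 without 5 kb around gene starts, 0.0055 in genes over 500 kb, 0.0039 for segment 10 over 1 and 0.0022 for the outer 100 kb. Leaving out each library gave −0.0067 to 0.013, −0.0029 to 0.0056 and −0.012 to 0.0081 in these comparisons. The causes of these changes were not tested.

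The number of long genes called by limma in Step1 against Con (14) was 9 without 5 kb around gene starts, 3 with trimmed-mean scaling, 7 with all reads, 8 at mapping quality 42, and 2 (Nrxn3 and Rbfox1) on the second run. It was 0 with limma-trend (100 at an unadjusted p below 0.05) and 0 on the first run (87). In Step2 against Con (10) it was 5 with trimmed-mean scaling, 2 (Fam155a and Lrp1b) on the first run and 1 (Prkce) on the second. Leaving out each library gave 1 to 25 in both. The stretches called in Step1 against Con numbered 0 to 12 across left-out libraries. Late against early within genes, 1 gene was called with all reads in each comparison with Con (Cmss1, lower), 1 at mapping quality 30 and 42 and on the second run in Step2 against Con (Shank2), and 1 on the first run in Step2 against Step1 (Ntm). Cmss1 and Ntm were singled out after their values were seen. Each run holds fewer reads than both together.

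Replicate numbers did not pair the libraries: deviations of same-numbered libraries from their group means correlated at 0.02, 0.01 and −0.01 over 12256 genes. With the number as a replicate block, the calls numbered 9 for Step1 and 10 for Step2 against Con. Depth limits single genes: with a median of 285 ends per gene and library, the median standard error was 0.08 to 0.09 on the log2 scale, beside median changes of −0.07 and −0.09.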

Other observations

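Outside the set, 26 protein-coding genes over 300 kb on chromosome X had body over flank log2 ratios of 0.06 and 0.08 in the Con libraries, 0.05 and 0.09 in those of Step1, and 0.04 and 0.01 in those of Step2. Con and Step1 overlapped, and both Step2 libraries were below Con by a mean difference of −0.04. The 217 noncoding genes over 100 kb that overlap no protein-coding gene had 0.0017 and 0.03 for Con, 0.0025 and 0.03 for Step1, and −0.01 and 0.01 for Step2, and the groups overlapped. These comparisons were not tested.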
